A study of Homo sapiens with 15 samples.

Results

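The BCL2 family decides whether the outer membrane of the mitochondrion stays closed. The transcripts of 10 of its genes were followed here in MT-2, a line of CD4+ T cells that human T-cell leukemia virus type 1 (HTLV-1) has transformed. They were taken as every transcript cluster that the array annotation gives to 1 of these gene symbols, which found exactly 1 cluster for each gene, 10 of the 28926 clusters on the array. A transcript cluster is the unit by which the array measures a gene. Of the members, 4 are pro-survival (BCL2, BCL2L1, MCL1 and BCL2A1) and 6 are pro-death (BCL2L11, BID, BAX, BAK1, BBC3 and PMAIP1).

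In this family, BAX and BAK1 form the pores through which cytochrome c leaves the mitochondrion. Pro-survival proteins hold them in check, and the BH3-only proteins BCL2L11 (BIM), BID, BBC3 (PUMA) and PMAIP1 (NOXA) bind the pro-survival proteins or activate BAX and BAK1. Several members, MCL1 and PMAIP1 above all, are short-lived proteins, and BID is activated by cleavage, so a transcript level does not give the protein level or its activity.

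The study compared ascorbic acid (AA, vitamin C) with interferon-α (IFN-α), both of which have been used against the neurological disease caused by HTLV-1. The cells were kept for 48 hours untreated, with AA at 10 µg/ml (low dose), at 50 µg/ml (intermediate dose) or at 100 µg/ml (high dose), or with IFN-α2A at 1000 IU/ml. Each condition has 3 arrays (Affymetrix Human Gene 1.0 ST), and a tag in the sample titles ties 1 array of each condition to the same experiment, which gives 3 experiments and 15 arrays. MT-2 is an established line that carries the virus, so every group, the untreated one included, consists of infected cells of a single line. The tags of experiments 2 and 3 share a date, and whether they were separate cultures is not stated. Where they were not, the p-values measure in part technical spread.

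All values are log2 signals as the authors normalized them by RMA, a background correction, quantile normalization and summary over probes, so a difference of 1 is a doubling of signal. Differences in level were taken between arrays for the same cluster only. Apart from this, clusters were placed against the median or quartiles of an array or grouped by brightness. The array median was 6.69 to 6.85, and each array correlated with the others at 0.991 to 0.995 on average, except that of high-dose AA in experiment 3, at 0.976. Differences of the members and of the named genes for high-dose AA are given with and without it. Without it, 38 instead of 75 clusters were called for high-dose AA against untreated cells. Only that array was left out, and untreated cells and IFN-α of experiment 3 stayed in. Values without it are thus differences of group means that are not paired by experiment. In that array, the brightest 25% of clusters had a median difference of -0.19 from untreated cells of its experiment, against 0.08 and -0.01 in experiments 1 and 2. Of 8 T-cell markers, CD4, CD2, IL2RA, CCR4 and FOXP3 lay above the array median on all 15 arrays. CD5 and CD28 lay below it, and PTPRC (CD45) lay below the lower quartile, on all 15. Of 13 markers of other cells, 9 never exceeded the array median, while NCAM1, KRT18 and COL1A1 exceeded it on all 15 arrays. Levels of different markers were not set against each other. The IFN-α response was present, with MX1, an antiviral GTPase, at 9.33 ± 0.25 against 5.89 ± 0.17 (SD, n = 3) in untreated cells. Of 4 response genes checked (IFI44L, MX1, OAS1 and IFIT1), 3 were called higher, where 0.28% of all clusters were called. IFIT1 was higher by 0.32 and was not called.

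Each treatment was compared with untreated cells, and high-dose AA with IFN-α, with a single limma model of the 15 arrays. Calls were made where the unadjusted p fell under 0.001. This threshold is that of the study's methods, and p-values adjusted by Benjamini-Hochberg over all clusters stand beside it. None of the 10 members was called in any of the 5 comparisons, on the slope over AA dose or in the test for any difference among the 5 conditions, with or without experiment as a block. The share of all clusters called was 0.0207% for low-dose AA, 0.0311% for intermediate-dose AA, 0.259% for high-dose AA and 0.28% for IFN-α against untreated cells. It was 0.65% for high-dose AA against IFN-α, 0.245% for the slope and 0.363% for any difference. A count of 0 among 10 genes is near these shares. With experiment as a block the shares called were 0.0622%, 0.0657%, 0.667%, 0.349%, 1.22%, 0.785% and 0.602%, for the low, intermediate and high dose, IFN-α, high-dose AA against IFN-α, the slope and any difference. In the model without the block a call would have needed a difference between 0.32 (BID) and 0.73 (BAK1), so smaller changes could not have been called in it. A lower signal per array could come from fewer cells with the transcript or from less RNA per cell, and these cannot be told apart in bulk RNA.

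At an unadjusted p under 0.05, 1 member (BID) passed for high-dose AA against untreated cells and 3 (BCL2, BID and PMAIP1) for high-dose AA against IFN-α, where 11% and 12.1% of all clusters did. With that of experiment 3 left out these were 1 (BID) and 3 (BCL2A1, BID and PMAIP1), where 4.93% and 6.48% of all clusters did, so against IFN-α BCL2 passed only with that array and BCL2A1 only without it. For low-dose AA, intermediate-dose AA and IFN-α against untreated cells 0 members passed, where 2.54%, 2.34% and 1.39% of all clusters did. On the slope 1 member passed (BID, 11.5% of all clusters) and 0 without that array (4.93%), and for any difference 1 (BID, 4.58%).

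The promoters of 4 family genes are shown because they hold letters read by the factors that IFN-α or cell stress activates. BCL2L14, a relative known as BCL-G, is among them because it was called under IFN-α. The windows of other relatives outside the 10 members were not searched. Its matches are thus a description of a gene picked for its call. The windows run from 250 bases before to 50 bases after a transcription start, from RefSeq on GRCh38.p14. The table has such a window for each member except MCL1, and 5 of these 9 members (BCL2A1, BID, BAX, BBC3 and PMAIP1) held 1 or more of the motifs searched. The interferon-stimulated response element core (ISRE, GAAANNGAAA) was found in 3.57% of all 35116 such windows, the gamma-activated site core (GAS, TTCNNNGAA) in 7.66% and the cyclic AMP response element core (CRE, TGACGT) in 7.98%, on either strand. These shares are for single motifs and single windows. The share of all genes with any of the motifs in any window was not computed, so none stands beside the 5 of 9. Capitals mark ISRE and GAS matches in BCL2L14, ISRE matches in BBC3, ISRE and GAS matches in BCL2A1 and the CRE match in PMAIP1, which lies 56 to 51 bases before the start on the strand opposite to the gene. The windows lie at chr12:12071153-12071452 (plus strand), chr19:47232618-47232917 (minus), chr15:79971147-79971446 (minus) and chr18:59899746-59900045 (plus), in that order.
BCL2L14: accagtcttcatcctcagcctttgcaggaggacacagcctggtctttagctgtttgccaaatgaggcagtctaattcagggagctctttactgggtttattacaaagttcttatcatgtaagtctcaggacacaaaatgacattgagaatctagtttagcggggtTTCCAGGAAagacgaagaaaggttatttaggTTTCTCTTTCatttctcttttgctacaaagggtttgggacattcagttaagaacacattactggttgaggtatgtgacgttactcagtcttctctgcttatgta
BBC3: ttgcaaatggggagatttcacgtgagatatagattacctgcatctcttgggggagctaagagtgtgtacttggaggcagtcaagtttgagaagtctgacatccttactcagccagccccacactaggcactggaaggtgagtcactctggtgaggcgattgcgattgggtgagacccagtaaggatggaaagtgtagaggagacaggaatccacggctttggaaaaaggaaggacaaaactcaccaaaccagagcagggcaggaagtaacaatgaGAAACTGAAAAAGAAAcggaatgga
BCL2A1: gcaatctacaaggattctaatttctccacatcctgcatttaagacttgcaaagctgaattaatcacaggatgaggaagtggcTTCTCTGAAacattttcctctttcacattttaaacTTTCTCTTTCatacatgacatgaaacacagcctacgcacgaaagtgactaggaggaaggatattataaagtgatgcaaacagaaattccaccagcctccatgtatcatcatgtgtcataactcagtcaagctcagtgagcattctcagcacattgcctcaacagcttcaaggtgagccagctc
PMAIP1: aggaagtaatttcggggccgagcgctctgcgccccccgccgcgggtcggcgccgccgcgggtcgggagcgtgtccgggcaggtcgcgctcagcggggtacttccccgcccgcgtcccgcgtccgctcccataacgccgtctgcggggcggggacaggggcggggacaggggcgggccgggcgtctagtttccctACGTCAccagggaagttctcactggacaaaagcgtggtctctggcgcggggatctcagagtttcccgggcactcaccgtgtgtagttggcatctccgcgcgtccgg
BBC3 holds 2 ISRE matches that overlap each other, from 26 to 35 and from 32 to 41 bases after the start. In BCL2A1 the ISRE match lies 133 to 124 bases before the start, on the strand opposite to the gene, and reads the same 10 letters as the match 54 to 45 bases before 1 of the 2 listed starts of BCL2L14. BCL2L14 also holds a CRE match 21 to 26 bases after that start. The windows of BCL2, BCL2L1, BCL2L11 and BAK1 held none of these letters nor the E-box CACGTG, which was in 7.26% of all windows. BAX held 4 E-boxes in its window, BBC3 held 1, and 2 of the 5 windows of BID, which overlap, held 1. A match describes the sequence and does not show that a factor binds there.

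Among the pro-survival members, BCL2 is the founding inhibitor of mitochondrial apoptosis. Its values in experiments 1, 2 and 3 were 9.03, 8.99 and 9.18 in untreated cells, 8.99, 8.93 and 8.67 with high-dose AA, and 9.14, 9.04 and 9.14 with IFN-α. High-dose AA was lower than both other groups without overlap, which held in this direction for 3.66% of all clusters against untreated cells and 3.74% against IFN-α. The difference from untreated cells was -0.21 (SE 0.11, 95% interval -0.45 to 0.04, limma adjusted p = 0.499), and that from IFN-α was -0.25 (-0.49 to -0.01, adjusted p = 0.403). In both comparisons most of it came from experiment 3. By experiment the difference from untreated cells was -0.05, -0.06 and -0.51, and without high-dose AA of experiment 3 it was -0.11. The difference from IFN-α without that array was -0.15 (adjusted p = 0.897). Low-dose AA gave 9.11, 8.89 and 8.93 and intermediate-dose AA 9.10, 9.06 and 8.72, so the value of experiment 3 was also the lowest at the intermediate dose.

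BCL2L1 encodes BCL-XL, which restrains BAX and BAK1 and is a known target of STAT factors in T cells. Its values were 10.64, 10.82 and 10.90 in untreated cells and 10.88, 10.59 and 10.48 with high-dose AA. The untreated values were lowest in experiment 1 and the high-dose values were highest there, so the experiments went opposite ways (0.24, -0.24 and -0.42). The mean difference was -0.14 (95% interval -0.37 to 0.09), and without high-dose AA of experiment 3 it was -0.05. From experiments 1 and 2 alone it was 0.0024, so the mean difference rested on experiment 3. Under IFN-α the values were 10.59, 10.67 and 10.74, lower than untreated cells in 3 of 3 experiments, as were 11.7% of all clusters. This difference was -0.12 (-0.35 to 0.11), within the spread between experiments, and the groups overlapped.

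MCL1 is a short-lived protector that sequesters BAK1 and BCL2L11. Untreated cells gave 11.07, 10.76 and 10.97, high-dose AA 10.94, 10.74 and 10.73, and IFN-α 11.05, 10.83 and 11.15. High-dose AA was lower than untreated cells in 3 of 3 experiments, as were 11.4% of all clusters, and lower than IFN-α in 3 of 3, as were 15.3%. Neither difference passed the test (-0.13, 95% interval -0.34 to 0.09, against untreated cells, and -0.21, -0.42 to 0.01, adjusted p = 0.424, against IFN-α). They were -0.09 and -0.17 without high-dose AA of experiment 3. The 3 AA doses had means of 10.86, 10.82 and 10.81 against 10.93 in untreated cells, and these neighbours differed by less than the spread between untreated arrays (SD 0.16).

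BCL2A1, an NF-κB target that blocks BH3-only proteins, had values of 7.21, 7.39 and 7.42 in untreated cells and 7.57, 7.40 and 7.17 with high-dose AA. The high-dose arrays were thus both the highest and the lowest of the 15, and the experiments differed in direction (0.36, 0.01 and -0.25). Without high-dose AA of experiment 3 the difference from untreated cells was 0.15 and that from IFN-α 0.22 (adjusted p = 0.607). With that array they were 0.04 (95% interval -0.16 to 0.24) and 0.11 (-0.09 to 0.31). IFN-α gave 7.23, 7.32 and 7.24, a difference of -0.07 (-0.28 to 0.13) from untreated cells with overlapping groups, for a gene whose window holds ISRE and GAS letters.

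Among the pro-death members, and among all 10, BID had the smallest p against untreated cells, under high-dose AA. BID carries the signal of death receptors to mitochondria once caspase-8 has cleaved it. Its values were 8.66, 8.75 and 8.58 in untreated cells, 8.66, 8.83 and 8.86 with low-dose AA, 8.73, 8.74 and 8.72 with intermediate-dose AA, 8.82, 8.87 and 9.01 with high-dose AA and 8.64, 8.67 and 8.66 with IFN-α. The high-dose values lay above every untreated and every IFN-α value, a separation in this direction found for 6.86% and 7.46% of all clusters. High-dose AA was higher than untreated cells by 0.24 (SE 0.08, 95% interval 0.07 to 0.40, adjusted p = 0.422), in 3 of 3 experiments (0.16, 0.13 and 0.43). Against IFN-α it was higher by 0.24 (0.08 to 0.41, adjusted p = 0.310), again in 3 of 3 (0.18, 0.20 and 0.35).

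The size of the BID difference depended in part on experiment 3. Without high-dose AA of that experiment it was 0.18 against untreated cells (adjusted p = 0.986) and 0.19 against IFN-α (adjusted p = 0.690), and from experiments 1 and 2 alone it was 0.14 against untreated cells. The slope was 0.18 per 100 µg/ml (95% interval 0.02 to 0.35, adjusted p = 0.420) and 0.13 without that array. An exact two-sided permutation test over all 13824 orders of the doses within experiments gave p = 0.0205 for BID and p = 0.0373 for BBC3, and more than 0.05 for the other 8 members, before any adjustment for the 10 members tested. This permutation was not run over all clusters, so no share of them stands beside it. In limma the slope of BBC3 was -0.12 with an interval that held 0 (-0.26 to 0.02, adjusted p = 0.468), and -0.10 without high-dose AA of experiment 3. For BID, low-dose AA gave a higher mean (8.78 ± 0.11, SD, n = 3) than intermediate-dose AA (8.73 ± 0.01), so its means did not follow the dose in order. IFN-α left BID at 8.66 ± 0.02 against 8.66 ± 0.08 in untreated cells, with an interval for the difference of -0.17 to 0.16.

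PMAIP1 (NOXA), a BH3-only protein that neutralizes MCL1 and is induced by stress and by interferon in many cells, had a mean above untreated cells under IFN-α and below them under high-dose AA, and neither difference passed the test. Its values were 10.86, 10.96 and 11.05 in untreated cells, 10.97, 10.83 and 10.60 with high-dose AA and 10.96, 11.23 and 11.21 with IFN-α. IFN-α was higher than untreated cells in 3 of 3 experiments, as were 9.47% of all clusters, by 0.18 (95% interval -0.05 to 0.41). High-dose AA was lower in 2 of 3 experiments (0.11, -0.14 and -0.44), with a mean difference of -0.16 (-0.38 to 0.07). This was -0.06 without high-dose AA of experiment 3.

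Set directly against each other, high-dose AA was lower than IFN-α by 0.34 for PMAIP1 (95% interval of the difference -0.56 to -0.11, adjusted p = 0.300). By experiment this difference was 0.01, -0.41 and -0.61, so it was present in experiments 2 and 3 and not in experiment 1, and the groups overlapped by 1 pair of arrays. Without high-dose AA of experiment 3 it was -0.24 (adjusted p = 0.711). From experiments 2 and 3 alone it was -0.51 and passed the call (adjusted p = 0.176), where 153 clusters did. Low-dose AA (10.86, 11.03 and 11.07) and intermediate-dose AA (10.88, 10.94 and 10.83) lay within or near the untreated range.

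BCL2L11 (BIM), which kills activated lymphocytes when cytokine support ends, lay between the lower quartile and the median of every array. High-dose AA gave 5.82, 5.82 and 6.02 against 5.84, 5.69 and 5.83 in untreated cells, a difference of 0.10 (95% interval -0.07 to 0.27) with overlapping groups. The difference was 0.04 without high-dose AA of experiment 3. Across all 15 arrays it varied between 5.69 and 6.02, and IFN-α differed from untreated cells by 0.01 (-0.16 to 0.18).

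BBC3 (PUMA), a BH3-only protein induced by DNA damage, had untreated values of 7.73, 7.69 and 7.69. Low-dose AA gave 7.82, 7.73 and 7.80, higher without overlap, as were 6.69% of all clusters, although the nearest values of the groups round to the same second decimal. The difference was 0.08 (95% interval -0.09 to 0.25). High-dose AA gave 7.57, 7.70 and 7.57 (-0.09, -0.26 to 0.08, and -0.07 without that of experiment 3), so the low and the high dose lay on opposite sides of untreated cells without either passing the test. IFN-α gave 7.55, 7.82 and 7.62, the widest spread of the 5 conditions for this gene, and a difference of -0.04 (-0.21 to 0.13). No higher mean was measured under IFN-α for this gene, whose window holds 2 ISRE matches.

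The effectors BAX and BAK1, which form the pore itself, differed more between experiments than between conditions. BAX had means over the 5 conditions of 10.20, 10.44 and 10.31 in experiments 1, 2 and 3, and BAK1 of 8.31, 8.68 and 8.44. In experiment 1 BAX lay between 10.11 and 10.28 and in experiment 2 between 10.34 and 10.49, without overlap. BAK1 lay between 8.10 and 8.42 in experiment 1 and between 8.52 and 8.85 in experiment 2, again without overlap. The share of all clusters separated in this way between experiments 1 and 2 was not computed. The separation is thus not shown to be particular to these genes.

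Of the sum of squares of BAX over the 15 arrays, 59.4% lay between experiments and 11.0% between conditions, and of BAK1 52.4% and 15.4%. The medians over all clusters were 21.8% and 26.0%. In a limma test for any difference among the 3 experiments, chosen after the data were seen, the adjusted p was 0.114 for BAX and 0.0921 for BAK1. Both, and no other member, passed an unadjusted p under 0.05, as did 22.7% of all clusters, and neither was called, as were 2.78%. Without high-dose AA of experiment 3 the adjusted p-values were 0.0474 and 0.0183, and BAK1 was called, where 3.92% of all clusters were. The other 8 members had adjusted p-values of 0.279 or more under that setting.

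BID was the opposite case, with 67.7% of its sum of squares between conditions and 8.55% between experiments. PMAIP1 followed with 53.7% and 6.24%. The difference of BAX between high-dose AA and untreated cells was -0.07 (95% interval -0.32 to 0.18), and that of BAK1 -0.12 (-0.50 to 0.26). These were -0.0011 and 0.03 without high-dose AA of experiment 3, so the BAX difference was close to 0 and that of BAK1 changed sign. Under IFN-α these were -0.01 (-0.26 to 0.24) and 0.12 (-0.25 to 0.50), and the latter was -0.07 without untreated cells of experiment 1. With experiment as a block the adjusted p of BAK1 for high-dose AA against IFN-α went from 0.570 to 0.328, and no member was called.

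With the roles kept apart, the 4 pro-survival members were all lower and the 6 pro-death members all higher than untreated cells at the low dose, with medians of -0.07 and 0.07 against 0.01 over all clusters. At this dose 47.7% of all clusters were lower, and 62.1% of the brightest 25%, where the median was -0.02. None of the members' differences at the low dose passed an unadjusted p under 0.05. By experiment the low-dose median was 0.04, -0.04 and -0.19 for the pro-survival members and 0.10, 0.05 and 0.02 for the pro-death members, so the pro-survival members were lower in experiments 2 and 3 and not in experiment 1. When single arrays or experiments were left out, these medians ranged from -0.11 to -0.0073 and from 0.03 to 0.10. At the intermediate dose the medians were -0.10 and 0.03 against 0.01. At the high dose, 3 of 4 pro-survival and 4 of 6 pro-death members were lower, with medians of -0.13 and -0.08 against 0.02 over all clusters. There 45.6% of all clusters were lower, and 61.6% of the brightest 25%, where the median was -0.04. For so few genes these counts are near the share of the brightest clusters.

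Part of the high-dose pattern rested on experiment 3. The pro-survival median was 0.10, -0.04 and -0.34 in experiments 1, 2 and 3, and the pro-death median was 0.08, 0.01 and -0.19. The brightest 25% of clusters, among which most members lie, moved alongside in experiment 3 (-0.19), and the part of this in the members' values was not tested. In experiment 3 the pro-survival median was also -0.19 at the low dose, -0.25 at the intermediate dose and -0.10 under IFN-α. The pro-death medians there were 0.02, 0.02 and -0.03. All of these share the untreated array of experiment 3, so its part and that of the treated arrays cannot be told apart. Without high-dose AA of experiment 3 the high-dose medians were -0.07 and 0.01, so the sign that the roles shared at the high dose was not shared without it. Under IFN-α the medians were -0.02 and 0.00 against -0.01 over all clusters. Lower were 2 of 4 and 3 of 6 members, and 54.3% of all clusters. High-dose AA against IFN-α gave -0.11 and -0.06 against 0.03. These comparisons share the untreated or the high-dose arrays and are not independent of each other.

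Of 13 further family genes listed, 12 had a cluster with 1 symbol. BCL2L14 was called, and no other of the 12 was, where 0.28% of all clusters were called for IFN-α against untreated cells. Its values were 5.91, 5.80 and 5.78 in untreated cells and 6.45, 6.24 and 6.35 with IFN-α, and every IFN-α value lay above every value of the other conditions. The difference from untreated cells was 0.51 (SE 0.09, limma adjusted p = 0.0255). From untreated cells alone, 2.62% of all clusters were separated in this direction, and the share separated from all other conditions was not computed. High-dose AA gave 5.82, 5.95 and 5.99, lower than IFN-α by 0.43 (adjusted p = 0.0763, called) and higher than untreated cells by 0.09 (adjusted p = 0.708). Without high-dose AA of experiment 3 these differences were -0.46 from IFN-α and 0.05 from untreated cells. The low dose gave 5.74, 5.84 and 5.92 and the intermediate dose 5.72, 5.98 and 5.91. Without experiment 2 (0.55) or experiment 3 (0.49) the IFN-α difference missed the call. Without high-dose AA of experiment 1, IFN-α of experiment 1 or 3, or any single experiment, that between high-dose AA and IFN-α did (-0.50 to -0.33). The signal stayed below the array median on all 15 arrays. The window with the ISRE and GAS letters is that of 1 of its 2 listed starts, and the array does not tell transcripts of the starts apart.

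The other genes of this list were not called. BCL2L13, a mitochondrial receptor of autophagy, was 7.74, 7.76 and 7.92 in untreated cells and 7.69, 7.57 and 7.11 with high-dose AA. The difference was -0.35 (adjusted p = 0.422), and -0.18 without high-dose AA of experiment 3. These groups did not overlap, which held in this direction for 3.66% of all clusters. BNIP3, a hypoxia-induced relative that directs mitophagy, had 11.28, 11.18 and 11.28 in untreated cells. Under AA it differed between experiments, with 11.39, 10.87 and 9.57 at the low dose and 11.27, 10.80 and 9.83 at the high dose. BNIP3 was thus lowest in experiment 3, also at the low dose, where the array did not stand apart. Its mean differences of -0.64 and -0.61 did not pass the test (SE 0.39), and the latter was -0.21 without high-dose AA of experiment 3. BCL2L10 ranged between 5.74 and 6.16 over the 15 arrays.

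Downstream of the pore, 0 of 10 genes of mitochondrial release were called. APAF1, the scaffold that cytochrome c assembles into the apoptosome, had values of 6.56, 6.67 and 6.54 in untreated cells and 6.48, 6.23 and 6.30 with high-dose AA. The difference was -0.25 (SE 0.08, adjusted p = 0.422), and -0.24 without high-dose AA of experiment 3. The groups did not overlap, which held in this direction for 3.66% of all clusters. APAF1 was lower in 3 of 3 experiments, as were 11.4% of all clusters. DIABLO, which relieves inhibition of caspases, had a difference of -0.27 (adjusted p = 0.482), and VDAC1 and VDAC3, channels of the outer membrane, -0.17 and -0.09. Without that array the differences of DIABLO, VDAC1 and VDAC3 were -0.07, -0.09 and -0.05. The median of the list at the high dose was -0.08 against 0.02 over all clusters, and it was 0.04, -0.02 and -0.24 by experiment. Of the genes, 8 of 10 were lower, where 45.6% of all clusters and 61.6% of the brightest 25% were.

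Of the listed transcription factors that drive family genes, 11 of 12 had a cluster with 1 symbol, and 0 were called. DDIT3 (CHOP), a stress factor that represses BCL2 and raises BCL2L11, was 8.96, 8.71 and 8.98 in untreated cells and 8.62, 8.53 and 7.95 with high-dose AA. It was lower by -0.52 (SE 0.17, adjusted p = 0.422, and adjusted p = 0.149 with experiment as a block). DDIT3 was lower in 3 of 3 experiments, as were 11.4% of all clusters, and without overlap, as were 3.66%. STAT3, which can raise BCL2L1 and MCL1, was 12.30, 12.28 and 12.29 in untreated cells and between 11.67 and 12.18 with high-dose AA. That difference was -0.34 (adjusted p = 0.441), also without overlap. ATF4, which acts upstream of DDIT3 and PMAIP1, was lower by -0.59 (adjusted p = 0.479), with 8.86 in experiment 3 against 10.09 and 10.30 in the others. FOXO3, a driver of BCL2L11 and BBC3, had a difference of -0.36 (adjusted p = 0.474). Its values were 7.74, 7.11 and 7.09 in untreated cells and 6.68, 7.25 and 6.92 with high-dose AA. Most of the FOXO3 difference came from experiment 1, and experiment 2 went the other way. At an unadjusted p under 0.05 the list had 2 genes lower, DDIT3 and STAT3, and 0 higher, where 3.62% of all clusters were lower and 7.34% higher. Neither passed it without high-dose AA of experiment 3 (DDIT3 -0.31 and STAT3 -0.20), and there the differences of ATF4 and FOXO3 were -0.14 and -0.35.

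Among 5 measured genes that control the turnover of MCL1 and other members, 0 were called, and the differences at the high dose lay between -0.23 and 0.07. FBXW7, USP9X and BTRC, which tag MCL1 or BCL2L11 for degradation or rescue MCL1 from it, had differences of -0.02, -0.11 and -0.23 at the high dose, and of 0.0054, -0.08 and -0.12 without that of experiment 3.

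The members with the smallest p for any difference among conditions were BID and PMAIP1. Among 18376 genes, those most like BID over the 15 arrays, after subtraction of experiment means, were DCLK1, TMA7, OR51L1, FAM118B and MRGPRX3. Their Pearson r was 0.93 to 0.94 (Spearman rho 0.90 to 0.95), and 0.83 to 0.90 without untreated cells and high-dose AA of experiment 3, the 2 arrays farthest from the BID median. Most like PMAIP1 were TNFRSF10A, a death receptor, IRF1, an interferon-induced factor, ZBTB43, PLEKHH1 and CCL3, with r of 0.92 to 0.93 (rho 0.82 to 0.93), and 0.83 to 0.89 without high-dose AA and IFN-α of experiment 3. These genes were selected for their likeness among all genes, and the arrays share culture and processing within experiments, so r is a description only.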

How the data were processed

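RNA of MT-2 cells was hybridised to 15 Affymetrix Human Gene 1.0 ST arrays. The deposited log2 values were made by the authors by RMA with xps 1.8.0, and no further normalization was applied. RMA fits the arrays together, which can shrink differences of dim clusters. Clusters were named by the platform annotation, which names no genome build. Of 28926 clusters, 19310 carry 1 symbol. Groups and experiment numbers come from the sample titles.

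Contrasts, the dose slope (12 arrays) and an F test were fitted with limma 3.58.1 in R 4.3.3 (10 residual and 3.91 prior degrees of freedom), and Benjamini-Hochberg adjustment ran over all clusters. Every member is named, with up to 4 genes per list by smallest p and the 5 genes most like the 2 members with the smallest F test p. The members and lists were chosen with earlier results of these data known. Arrays of the same experiment deviated together, with a median correlation of deviations from condition means of 0.281 (30 pairs, -0.194 to 0.536) against -0.172 (60 pairs) between experiments. Such deviations sum to 0 within each condition, so the second value is tied to the first and is no independent contrast. The pairing rests on the shared tag, and experiment was also used as a block, fixed or random (statmod 1.5.0, consensus correlation 0.157). The fit was tested on simulated data. Array number limits the precision. Plots used matplotlib 3.10.9 (Python 3.11.15).

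The alternatives were the block, no clusters of the dimmest 25%, array weights, a variance trend with robust fitting, cyclic loess, models of the compared groups alone, a p under 0.05, and leaving out each array or experiment. The counts at a p under 0.05 and the values of listed genes without high-dose AA of experiment 3 were added after seeing the data.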

Additional observations from a re-analysis of the deposited data

How the results depend on the processing

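The count of members called stayed at 0 for each comparison, except as follows. With array weights it was 1 for high-dose AA against untreated cells (BID, 0.21), 3 for high-dose AA against IFN-α (MCL1, -0.29, BID, 0.21, and PMAIP1, -0.34) and 2 for any difference, while 2089, 2150 and 2610 of all clusters were called. That fit stopped before it converged and gave high-dose AA of experiment 2 a weight of 18.7 against 0.237 and 0.106 for experiments 1 and 3, so it rests on 1 high-dose array. At a p under 0.05 the counts were 1, 3, 1 and 1 for high-dose AA against untreated cells, high-dose AA against IFN-α, the slope and any difference. Leaving out arrays or experiments gave 0 to 1 for high-dose AA against IFN-α, with the 1 (PMAIP1, -0.51) when experiment 1 was left out.

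Of the 10 medians of the roles, 7 took both signs when arrays or experiments were left out. For the pro-death members the ranges were -0.017 to 0.038 (intermediate dose), -0.15 to 0.045 (high dose) and -0.018 to 0.049 (IFN-α) against untreated cells and -0.13 to 0.031 for high-dose AA against IFN-α, where the median was 0.025 with array weights. For the pro-survival members they were -0.17 to 0.021 (intermediate dose), -0.057 to 0.031 (IFN-α) and, for high-dose AA against IFN-α, -0.21 to 0.0018. Both low-dose medians and the high-dose pro-survival median (-0.22 to -0.026) kept 1 sign. Of 1500 recomputed values of single members, 73 changed sign, 61 of them on leaving out arrays, and 0 of these passed the threshold. The values whose sign changed were at most 0.24 in size.

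The settings for BCL2L14 were chosen after its call was seen. Its difference under IFN-α ranged from 0.46 to 0.57 over 18 settings that left out arrays, and 2 of them, without experiment 2 or 3, missed the call. Its difference between high-dose AA and IFN-α ranged from -0.50 to -0.33, and 6 of the 18 missed the call, as did the model of the compared groups alone (-0.43). With replicate as a block the counts of members called were 0 in every comparison and BCL2L14 was called in both (adjusted p = 0.0388 and 0.0542), so the block changed no call given here. The cause of these changes was not tested.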
